A study of Macaca mulatta with 304 samples.

Results

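The B cell receptor genes described here are 9 of the 21070 genes counted in whole blood RNA of irradiated rhesus macaques (Macaca mulatta), taken by their symbols. They are the signaling chains CD79A and CD79B, the surface proteins CR2 and MS4A1, the inhibitory receptors CD22 and CD72, the kinases BLK and BTK, and the adaptor BLNK. All 9 had enough counts to be among the 13751 genes tested. Blood was drawn from 28 animals, 14 females and 14 males of the Chinese sub-strain aged 3 to 5 years, before and after photon irradiation of the upper thorax. The lower dose (LD, 9.8 Gy) group had 12 animals and 151 samples after irradiation, and the higher dose (HD, 10.7 Gy) group had 16 animals and 129 samples. The control group was the 24 samples drawn on Day -2, each from a different animal, and 4 HD animals had no control. All animals were given tramadol or buprenorphine, opioid analgesics, in the weeks after irradiation, and animals that breathed fast were given the glucocorticoid dexamethasone, though the labels do not name them. Irradiated samples came from 15 scheduled days between Day 3 and Day 270 and from 8 draws on other days. No unirradiated animals followed over the same days were analysed here, so time since the first draw and irradiation cannot be told apart.

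The B cell receptor is a membrane immunoglobulin held in a complex with a pair of signaling chains, CD79A and CD79B. When antigen is bound, kinases of the SRC family such as BLK and LYN phosphorylate these chains, SYK is recruited, and the adaptor BLNK brings BTK and phospholipase C gamma together so that calcium, NF-kB and MAP kinase signals follow. CR2 (CD21) binds complement fragments and lowers the threshold of activation, while CD22 and CD72 recruit phosphatases that restrain it. MS4A1 is CD20, a surface protein of mature B cells. B cells are among the blood cells most sensitive to radiation, and most of these genes are used in blood almost exclusively by B cells, but BTK is also used by monocytes, granulocytes and platelets.

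On the genome assembly Mmul_10 with its RefSeq annotation, CD79A lies at chr19:41019374-41024437 on the plus strand and CD79B at chr16:60488425-60492051 on the minus strand. CR2 lies at chr1:64965446-65004361 (plus), MS4A1 at chr14:13717471-13733388 (minus), CD22 at chr19:34758258-34781500 (plus) and CD72 at chr15:48563591-48593471 (plus). BLK lies at chr8:9016899-9091721 (minus), BTK at chrX:98161887-98200129 (minus) and BLNK at chr9:96609638-96689405 (minus). CD72 overlaps TESK1 on the opposite strand, a gene with a median count of 249 per sample, and the strand setting of the counting is not given in the sources used here.

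In a window from 250 bases before to 50 bases after a transcript start, the promoters of the members were searched for motifs of B cell factors. The start taken for each gene was the one shared by the most annotated transcripts, and the most upstream of these where starts tied. That of BLNK was used by 1 of its 3 annotated transcripts. The octamer motif of POU family factors (ATGCAAAT, either strand) was found in 2 of the 9 windows, that of BLNK among them, and 1.67% of the 20782 promoters on Mmul_10 hold it. A palindromic motif of EBF1 (in 1.12% of promoters) and one of PU.1 (GAGGAAGT, either strand, in 2.24%) were found in none of the 9 windows. A match describes the letters of the window and is not a measurement of binding. The 250 bases upstream of BLNK at chr9:96689406-96689655 (minus strand) are shown 5′ to 3′ on the strand of the gene, with the octamer (as its reverse complement) in capitals.
BLNK: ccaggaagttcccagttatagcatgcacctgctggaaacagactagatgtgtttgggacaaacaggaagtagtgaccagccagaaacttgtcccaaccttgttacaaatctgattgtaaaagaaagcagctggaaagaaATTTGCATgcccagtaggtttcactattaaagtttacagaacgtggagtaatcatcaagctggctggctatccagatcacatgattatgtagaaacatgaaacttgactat
The octamer starts at position -111 from the start site of BLNK.

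Values below are CPM (counts scaled to a common library size) after upper quartile scaling, and fold changes (log2) set each animal against its own control in the quasi-likelihood fit of edgeR, with p-values adjusted by Benjamini-Hochberg over all genes tested. A gene is called where the adjusted p is at most 0.05 and the change at least 1.5-fold. In bulk blood, fewer B cells and less RNA per B cell cannot be told apart. The total count per sample ranged from 2840219 to 23638161 (median 8227563). Library numbers sort the samples into 3 groups, here library series A (120 samples), B (34) and C (150). Series A and B are a lower and a higher range of numbers. Samples of series C carry no number of their own and need not share a batch. The meaning of the groups is not given in the sources used here. Of the controls 20 were of series A and 4 of series C, so that day and control shared a series in all 24 animals up to Day 15, in 16 of 24 at Day 21, in 4 of 24 at Days 30 and 40, in 2 of 21 at Day 60, in 1 of 15 at Day 90 and in no animal later. From Day 60 on, the change from control and the change of library series cannot be told apart by animals that share a series. A fit with series as a term ended 15 calls of single members in the comparisons with control, and only some of these are named below. The LD sample of animal B1502 on Day 150 and the HD sample of animal B2007 on Day 40 stood apart from the other libraries, by the fewest genes detected (11695, against at least 13931 elsewhere) and by a scale factor of 0.379 (at least 0.608 elsewhere). Without the sample of B2007 the counts of called members on Day 40 and on the steps from Day 9 and Day 30 to Day 40 stayed as they were, and so did those on Day 150 and the steps around it without the sample of B1502.

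In control blood the 9 genes spanned a wide range of abundance. Per kilobase of exon, CD79A was highest with a median of 255 CPM per kb (68.9 to 616 over the 24 animals), followed by CD79B with 178 (40.8 to 313) and MS4A1 with 70.3 (23.9 to 147). The medians of BTK (27.02, range 14.1 to 37.1), CD22 (25.9, 4.44 to 52.4) and BLK (20.1, 6.62 to 37.7) lay close together. The range of BTK was the narrowest of these and lay within that of CD22. BLNK had a median of 11.9, CD72 of 9.27 and CR2 of 6.31 CPM per kb, the last with a median of 320 counts per control sample. Neighbors in this order all overlapped in their ranges.

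Transcripts of 8 of the 9 genes were lower than control on Day 3, fewer were called between Day 6 and Day 90, and the 8 were called again from Day 120 to Day 240. On Day 3, 8 genes were lower, where 4.62% of all genes tested were called lower. The count was 7 at Day 6 (background 5.48%), 7 at Day 9 (2.43%), 5 at Day 15 (0.887%) and 3 at Day 21 (2.73%). Only CD79B was called on Day 30 (1.33%), and only CD79A on Day 40 (2.85%). The count was 5 on Day 60 (1.92%), namely CD79A, CD79B, CR2, CD22 and BLK, of which CD79A and CD22 stayed called with library series as a term and CD79B without the animal as a block. It was 7 on Day 90 (3.16%). On Day 120, 8 genes were lower (19.1%), and the same number was called on Day 150 (19.5%), Day 180 (9.88%), Day 210 (16.8%) and Day 240 (3.37%). No member was called higher on any day, against 6.89% of genes on Day 3 and 12.7% on Day 120. The median log2 fold change over the 9 genes was -1.32 at Day 3, -0.41 at Day 21, -1.83 at Day 120 and -2.51 at Day 240, beside -0.06, 0.00, -0.15 and -0.06 over all genes tested.

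**Figure D1:**
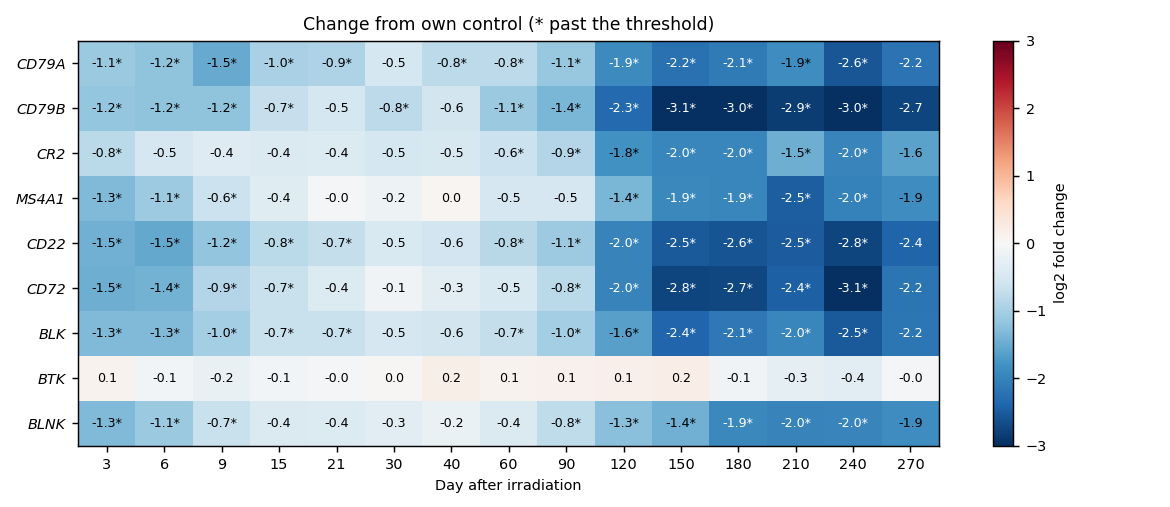
Log2 fold change from the animal's own control (color and number) for the 9 genes (rows) on each scheduled day (columns), with an asterisk where the gene passed the threshold. The 8 genes other than BTK are called lower on Day 3 and on Days 120 to 240, and BTK stays between -0.35 and 0.20.

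On Day 270 no member was called by edgeR, and 1 gene of all 13751 (0.00727%) was, although 4040 genes had an unadjusted p under 0.05. The log2 fold changes of the 8 genes other than BTK were between -2.74 (CD79B, adjusted p = 0.077) and -1.61 (CR2, adjusted p = 0.08), of the size seen on Day 240. The 6 animals of that day were uneven. CD79A ranged from 19.1 to 205.7 CPM with a median of 73.4, and CD72 from 0.584 to 39.8 with a median of 7.02. DESeq2 called 8 members on Day 270, as did edgeR without animal B1003. The shares of all genes called in these settings are not reported here.

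CD79A and CD79B are the signaling chains, whose cytoplasmic tails carry the tyrosines that start the cascade. CD79A had a lowest value of 90.4, a median of 334 and a highest value of 809 CPM in the 24 controls. On Day 9 it ranged from 44.6 to 225.4 with a median of 103.3 CPM, and all 24 animals were below their own control. The fold change was -1.50 ± 0.14 (log2, SE, adjusted p = 7.8e-09, edgeR), the lowest of the 9 genes on that day, and 8 of the 28 samples lay below the lowest control. On Day 40 the median of CD79A was 192.8 CPM (54.5 to 510), though each of the 24 animals was still below its control (-0.78 ± 0.10, adjusted p = 1.3e-06). On Day 120 its values ran from 16.5 to 159 with a median of 68.5 CPM, with all 12 animals below control (-1.92 ± 0.20, adjusted p = 8.5e-06) and 8 of 14 samples under the lowest control. The lowest median was 49.3 CPM on Day 150, and the animals then had a median of 25.2% of their control.

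CD79B ranged from 52.6 to 404 CPM in controls, with a median of 229.2. It fell to a median of 83.3 CPM on Day 3 (32.03 to 195.6), with 23 of 24 animals below control (-1.15 ± 0.11, adjusted p = 8.8e-10). On Day 21 the median was 140 CPM (55.9 to 292.5), with 21 of 24 animals below control. The call on Day 30 (-0.79 ± 0.14, adjusted p = 1.1e-04) was not found in the 4 animals with both samples in one series, which had a log2 fold change of 0.01, or with library series as a term (-0.14). The part of the series in it was not tested. From Day 120 CD79B had the lowest fold changes of the 9 genes on all days but Day 240. Its values on Day 120 ran from 5.34 to 69.03 with a median of 37.7 CPM, all 12 animals were below control, and the change was -2.34 ± 0.22 (adjusted p = 5.1e-06). On Day 150 it stood at -3.10 ± 0.33 (adjusted p = 2.2e-05, n = 9), and 8 of the 9 samples lay under the lowest control.

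The surface proteins CR2 and MS4A1 differed in their early course. CR2, the complement receptor, was between 9.27 and 50.6 CPM in controls with a median of 26.8. On Day 3 it was 14.8 CPM in the median (5.29 to 33.8), with all 24 animals below control, and the change of -0.81 ± 0.09 (adjusted p = 4.1e-09) was the smallest among the 8 genes called. On Day 6 the change was -0.50 and on Day 9 -0.39, both under the 1.5-fold limit, so that CR2 dropped out of the calls earlier than the rest. It was next called on Day 60 (-0.65 ± 0.19, adjusted p = 0.018) and reached 7.24 CPM on Day 120 (1.94 to 15.7, -1.83 ± 0.19, adjusted p = 9.3e-06).

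MS4A1, or CD20, was between 81.4 and 499 CPM in controls with a median of 238.9. Its median was 95.7 CPM on Day 3 (34.5 to 234.2), and 10 of 24 samples lay under the lowest control (-1.32 ± 0.14, adjusted p = 2.2e-08). By Day 21 the median was 235.5 CPM (67.3 to 460), 14 of 24 animals were below control, and the value of -0.05 ± 0.12 (adjusted p = 0.75) was the nearest to 0 of the 8 genes other than BTK. The median on Day 40 was 236.6 CPM (82.8 to 573), with 11 of 24 animals below control. On Day 120 it was 66.6 CPM (12.9 to 151), with 11 of 12 animals below control (-1.36 ± 0.25, adjusted p = 5.2e-04), and the deepest change was -2.46 ± 0.19 on Day 210 (adjusted p = 3.8e-05, n = 6), when all 6 samples (13.8 to 59.2 CPM) lay under every control. The call of MS4A1 on Day 240 (-2.02 ± 0.35, adjusted p = 0.0094) was lost without animal B1503 (-1.96, adjusted p = 0.059).

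The inhibitory receptors CD22 and CD72 showed the largest falls in the first week. CD22, a lectin that binds sialic acid, ranged from 15.0 to 177 CPM in controls with a median of 87.3. On Day 6 its median was 24.8 CPM (11.1 to 118.7), all 24 animals were below control, and the change was -1.54 ± 0.13 (adjusted p = 8.0e-10). The change was -0.45 on Day 30 (median 64.03 CPM, 16.4 to 176.5), and 20 of 24 animals were still below control. On Day 120 the median was 18.8 CPM (2.91 to 43.2) and the change -2.01 ± 0.17 (adjusted p = 1.6e-06), below control in 12 of 12 animals.

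CD72, a C-type lectin, ranged from 6.11 to 98.96 CPM in controls with a median of 37.7. Its median on Day 3 was 12.8 CPM (4.04 to 37.8), with all 24 animals below control (-1.46 ± 0.09, adjusted p = 2.3e-13). By Day 30 the median was 35.3 CPM (9.19 to 120), 15 of 24 animals were below control, and the change was -0.11 ± 0.09 (adjusted p = 0.38). It was 9.90 CPM on Day 120 (0.728 to 27.6, -2.00 ± 0.19, adjusted p = 5.1e-06) and 4.71 CPM on Day 240 (1.89 to 13.4, -3.09 ± 0.31, adjusted p = 0.0015), the lowest fold change of the 9 genes on that day. CD72 was thus close to its control level on Day 30 and at 13.4% of it in the median of the 6 animals on Day 240.

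BLK and BTK are the kinases, and they parted from each other. BLK, a SRC family kinase of B cells, ranged from 22.3 to 127 CPM in controls with a median of 67.9. It fell to 24.2 CPM on Day 3 (10.7 to 65.8, -1.33 ± 0.11, adjusted p = 2.5e-11), below control in all 24 animals. On Day 40 the median was 47.5 CPM (14.9 to 98.9), with 23 of 24 animals below control and a change of -0.55 that was under the 1.5-fold limit. On Day 120 it was 21.95 CPM (3.88 to 42.8, -1.63 ± 0.15, adjusted p = 3.8e-06), and on Day 150 13.4 CPM (0 to 29.3), the value of 0 being the sample of animal B1502 named above.

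BTK, the TEC family kinase, was not called against control on any day. It ranged from 37.1 to 97.4 CPM in controls with a median of 71.0. On Day 3 its median was 74.9 CPM (50.8 to 100.1), on Day 9 61.6 (36.9 to 80.8) and on Day 120 74.99 (54.4 to 94.6), so that these ranges lay almost wholly within that of the controls. The Day 9 value of -0.23 ± 0.05 had an adjusted p of 0.0012 with 21 of 24 animals below control, and it did not reach the 1.5-fold limit. On Day 120 the change was 0.14 ± 0.10 (adjusted p = 0.27), with 4 of 12 animals below control.

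BLNK, the adaptor that links BTK to the receptor, ranged from 10.1 to 52.9 CPM in controls with a median of 28.4. On Day 3 its median was 11.5 CPM (4.78 to 20.1), with all 24 animals below control (-1.32 ± 0.08, adjusted p = 3.0e-14). It stood at 26.9 CPM on Day 40 (8.14 to 44.9, -0.20 ± 0.08, adjusted p = 0.051), with 17 of 24 animals below control. On Day 120 the median was 10.5 CPM (3.88 to 16.3, -1.26 ± 0.16, adjusted p = 3.9e-05), and the change was near -2 on Days 180 to 240 (-1.94, -1.99 and -1.98).

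**Figure D2:**
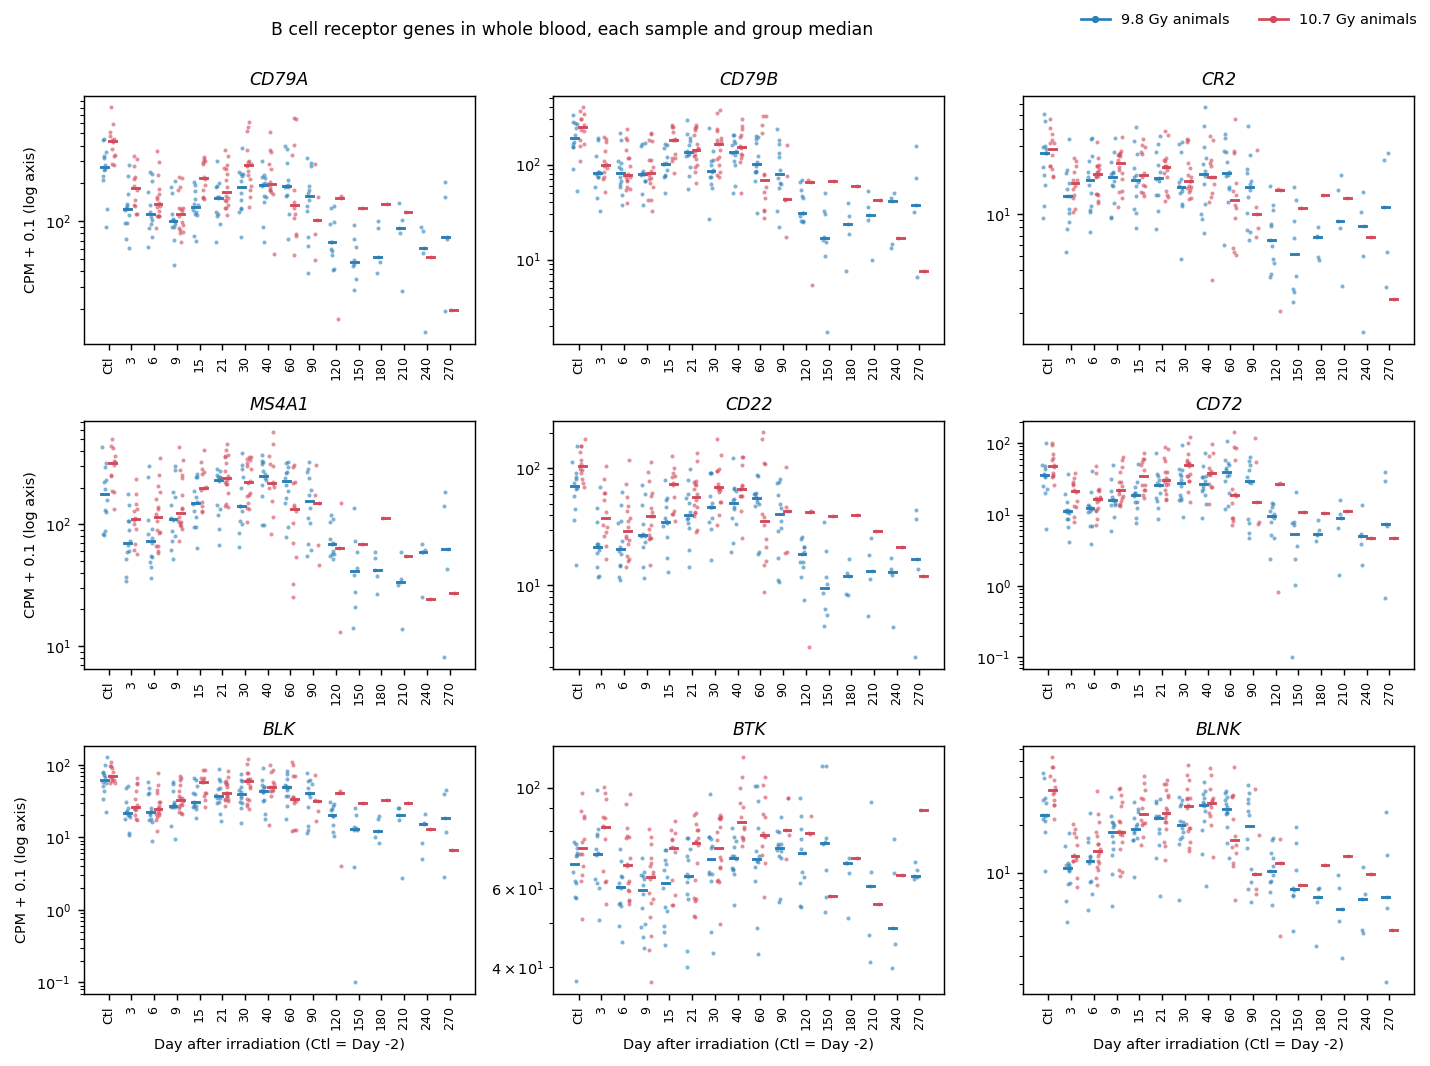
CPM plus 0.1 (log axis) of each gene in each sample on the scheduled days, LD animals in blue and HD animals in red, with a bar at the group median. In 8 panels the points lie lower than control on Day 3 and from Day 120, when few HD animals are left, and BTK was called on none of the days.

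Markers of other cells were called on some of the same days, some lower and some higher. They are given as measured, and their part in the results was not tested. On Day 9 all 8 genes of an erythroid list were higher than control, and their summed level was between 4212 and 42296 CPM (median 15706), against 1570 to 11238 (6193) in controls. None of 8 T cell genes was called on Days 3 and 9. Of 12 other B cell genes such as PAX5 and EBF1, 11 were lower on Day 3 and 9 on Day 9, with a summed level of 205.9 to 1084 CPM (median 478) on Day 9 against 249.8 to 1898 (931) in controls. On Day 120, 9 of those 12 were lower, 6 of the 8 T cell genes were lower (summed level 226.7 to 1338, median 827.5 CPM, against 764.6 to 1929, median 1317), and 6 of 7 neutrophil genes were higher (3138 to 16542, median 6267, against 813.7 to 7969, median 2935). Of 10 genes induced by glucocorticoids, 5 were higher on Day 120 and none was lower, with a summed level of 1763 to 20509 CPM (median 3176) against 1386 to 4552 (1855). On Day 3 the 8 erythroid genes, 6 of 7 monocyte and 5 of 5 platelet genes were higher, with 1 of 7 NK cell genes lower, 1 of 7 neutrophil genes higher, and 2 higher and 1 lower of the glucocorticoid list. On Day 9, 3 of 7 monocyte genes and 1 of 7 plasma cell genes were higher, and 3 of 7 NK cell, 1 of 5 platelet and 3 of 10 glucocorticoid genes were lower. On Day 120, 4 of 7 monocyte and 4 of 5 platelet genes were higher, and 2 of 7 NK cell and 2 of 7 plasma cell genes were lower. No marker of these lists was at 0 in a control sample, and on Day 120 VPREB3 and TCL1A of the B cell list and TNFRSF17 of the plasma cell list were each at 0 in at least 1 sample.

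The path between the 2 falls was tested in animals with both samples. From Day 9 to Day 40, 4 members rose (2.24% of genes were called higher). MS4A1 rose from a median of 134.9 to 236.6 CPM (0.67 ± 0.12, adjusted p = 1.7e-04, higher in 21 of 24 animals), CD79A by 0.71 ± 0.14 (adjusted p = 6.0e-04, 20 of 24), CD79B by 0.63 ± 0.14 (adjusted p = 0.0019, 19 of 24) and CD22 by 0.61 ± 0.14 (adjusted p = 0.0017, 20 of 24). BTK had a difference of 0.41 with 23 of 24 animals higher, under the fold limit. The 4 animals with both samples of one series gave 7 called members, and without the animal as a block 2 members were called. For these settings the shares of all genes called are not reported here. CR2 had a difference of -0.10 ± 0.14 over this interval, with 10 of 24 animals higher.

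From Day 40 to Day 60, CD79B (-0.60 ± 0.19, adjusted p = 0.032, lower in 14 of 21 animals) and MS4A1 (-0.68 ± 0.21, adjusted p = 0.031, lower in 18 of 21) were called, where 1.69% of genes were called lower. Neither was called without the animal as a block or in the 11 animals with both samples of one series. No member was called by edgeR from Day 60 to Day 90 (0.109% of genes lower), although 8 had an unadjusted p under 0.05 with differences between -0.76 and -0.49. DESeq2 called 4 members on this step, and its share of all genes called is not reported here.

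The step from Day 90 to Day 120 was the only neighboring pair of days on which 8 members fell (7.75% of genes were called lower), and all 14 animals had both samples in one library series. CD72 fell from a median of 29.0 to 9.90 CPM (-1.54 ± 0.27, adjusted p = 0.0027, lower in 13 of 14 animals), CD22 from 46.1 to 18.8 (-1.23 ± 0.21, adjusted p = 0.0027, 13 of 14) and CD79B from 80.4 to 37.7 (-1.19 ± 0.25, adjusted p = 0.0044, 12 of 14). BLNK fell least (-0.76 ± 0.23, adjusted p = 0.022, 12 of 14), and BTK differed by -0.01. Measured from Day 40, the same 8 genes were called on Day 120 (13.5% of genes lower), with all 12 animals lower for each, from -1.88 ± 0.20 for CD79B to -1.13 ± 0.13 for BLK. In the 6 animals with both of these samples in one series the 8 calls stood, with -2.10 for CD79B. Of the 14 steps between neighboring days, 12 had no called member by edgeR. Outside the step from Day 60 to Day 90, the share of all genes called either way on these was 2.39% (Day 3 to 6), 4.6% (Day 6 to 9), 2.85% (Day 9 to 15), 1.04% (Day 15 to 21), 7.09% (Day 21 to 30), 4.92% (Day 30 to 40), 7.97% (Day 180 to 210), 13.1% (Day 210 to 240) and 0% on the other 3, and DESeq2 called no member on them either. Between Day 120 and Day 150, 5 members had an unadjusted p under 0.05, and on the steps after Day 120 the differences of the members lay between -0.91 and 0.99.

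To ask which members moved apart from the other B cell transcripts, the counts were also scaled by 12 further B cell genes (such as PAX5 and EBF1) in place of the upper quartile. A value below 0 on this scale is a larger fall than the average of the B cell reference genes, not than each of them. The reference genes were chosen with earlier results of these data known. On Day 3 no member was lower (0.138% of genes were called lower), and the 8 genes other than BTK lay between -0.40 and 0.24. On Day 9 only CD79A was lower (-0.80 ± 0.13, adjusted p = 5.0e-07, background 0.102%). CR2 was higher on Day 6 (0.59 ± 0.13, adjusted p = 7.9e-05), where 91.3% of all genes were called higher on this scale. On Day 6, 2 members were called higher, BTK and CR2, and with library series as a term 1 member was called. Only CD79B was lower on Day 30 (-0.72, background 0.669%) and only CD79A on Day 40 (-0.60, 0.88%). Neither was called with library series as a term (-0.12 for CD79B and -0.57 for CD79A), and CD79B on Day 30 was at 0.03 in the 4 animals with both samples of one series.

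On Day 120, 5 members were lower relative to the average of the other B cell genes (background 0.225%). Of these 12 reference genes 9 were called lower than control on that day, and VPREB3 and TCL1A were at 0 in some samples. PAX5, the lowest called of them, stood at -2.01 from control. The 5 members stood at -2.34 (CD79B), -2.01 (CD22), -2.00 (CD72), -1.92 (CD79A) and -1.83 (CR2) from control. CD79B had the lowest value (-1.14 ± 0.18, adjusted p = 1.5e-05), followed by CD22 (-0.82 ± 0.15), CD72 (-0.79 ± 0.16), CD79A (-0.73 ± 0.18) and CR2 (-0.63 ± 0.18). MS4A1 (-0.15 ± 0.22, adjusted p = 0.53) and BLNK (-0.08 ± 0.20, adjusted p = 0.73) lay near the reference genes. CD79B was lower on this scale on each day from Day 60 to Day 270 (background 0.0291% at Day 60, 0.153% at Day 90, 0.196% at Day 150, 0.175% at Day 180, 0.247% at Day 210, 0.175% at Day 240 and 0.0727% at Day 270), with its lowest value on Day 150 (-1.61 ± 0.33, adjusted p = 3.4e-06), and CD22 on each day from Day 90 to Day 240 (-0.96 to -0.64). BTK stood at 1.34 ± 0.19 on Day 120, when 76.7% of all genes were called higher and the median of all genes was 1.04.

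These values moved with the library series. With series as a term in one fit over all days, CD79B on Day 120 was at -0.64 ± 0.15 (adjusted p = 4.0e-05) and on Day 60 at -0.37 (adjusted p = 0.075), CR2 was no longer called on Day 120, and CD22 (-0.75), CD72 (-0.68) and CD79A (-0.72) were. In the 14 animals with Day 90 and Day 120 samples of one series, none of the 8 genes was called lower on this scale between these days, and their values included -0.54 for CD72 (adjusted p = 0.018) and -0.19 for CD79B (adjusted p = 0.35). The Day 40 value of CD79A (-0.60 ± 0.07) was -0.70 in the 4 animals with both samples of one series, and it was under the fold limit with series as a term (-0.57 ± 0.11) and with summed counts as the library size (-0.53 ± 0.06).

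**Figure D3:**
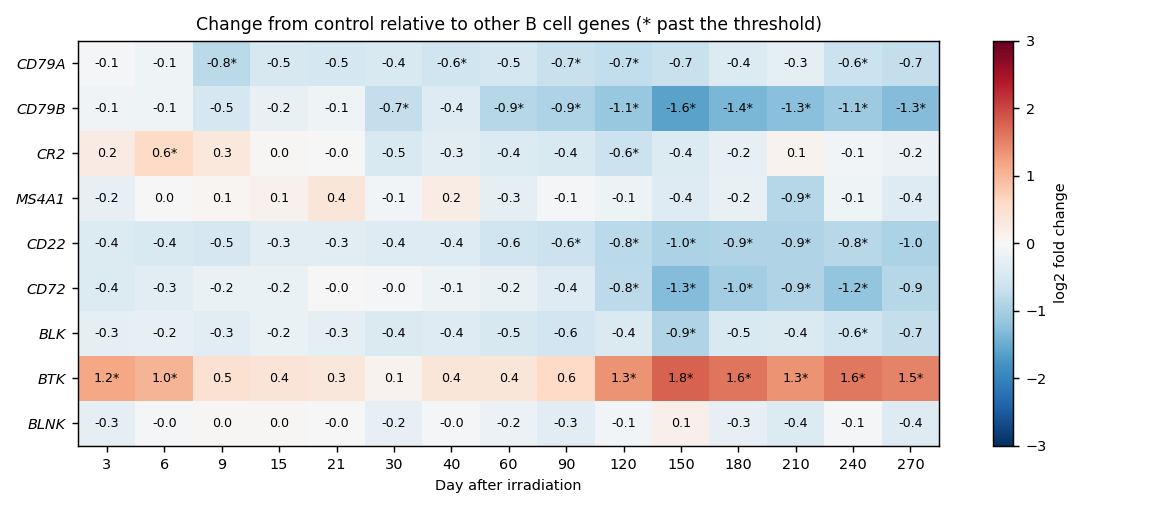
Log2 fold change from the animal's own control after scaling by 12 other B cell genes, in color and number, with an asterisk where the gene passed the threshold. CD79B, CD22 and CD72 are at -0.79 or lower on each day from Day 120 to Day 270, and BTK lies at 1.34 to 1.78 from Day 120.

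The rest of the receptor pathway was read from a list of 46 further genes, of which 43 were tested (the 2 membrane immunoglobulin genes of the list were not analysed here). On Day 9, 4 of the 43 were lower (2.43% of all genes were) and none higher, and the median log2 fold change of the list was -0.21 (0.00 over all genes tested). SIGLEC10, a lectin with inhibitory tails (-1.10 ± 0.11), and VAV2, an exchange factor for small GTPases (-1.09 ± 0.09), were lower in all 24 animals, and the scaffold BANK1 in 21 of 24 (-0.63 ± 0.11).

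On Day 120, 7 of the 43 pathway genes were lower and 7 were higher, with a median of 0.00, beside 19.1% of all genes called lower and 12.7% called higher. VAV2 (-1.54 ± 0.15, adjusted p = 7.2e-06) and BANK1 (-0.94 ± 0.15, adjusted p = 2.2e-04) were among those lower, in 12 of 12 animals each. The highest were FCGR2B, the inhibitory Fc receptor (1.14 ± 0.29, adjusted p = 0.0042, from a median of 458 to 794 CPM), DOK3 (1.09 ± 0.20), the calcineurin subunit PPP3R1 (1.06 ± 0.21) and the inhibitory receptor CD300A (0.98 ± 0.27). FCGR2B, DOK3, PPP3R1 and CD300A are used by myeloid cells as well. The neutrophil list named above was also higher on that day, and its part in the values of these genes was not tested. By role, 1 of 6 proximal kinases and phosphatases was lower and 2 were higher on Day 120, and of 11 inhibitors 1 was lower and 3 were higher. Of the other B cell genes, FCRLA (-1.44 ± 0.11) and TNFRSF13C, the BAFF receptor (-1.12 ± 0.17), were lowest on Day 9, and PAX5 (-2.01 ± 0.17, 219.5 to 48.4 CPM) and TCL1A (-1.69 ± 0.29, 14.4 to 3.75 CPM) on Day 120.

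The 5 genes outside all lists whose fold changes on the 15 days lay nearest to the median of the members were AFF3 (mean absolute difference 0.099 on the log2 scale), CLEC17A (0.104), MAMU-DOB (0.108), XKRX (0.122) and BCL7A (0.137), where the median over all 13751 genes was 1.26. AFF3 stood at -1.09 at Day 3, -0.51 at Day 40 and -1.78 at Day 120, and CLEC17A at -1.39, -0.38 and -1.79. Among the members BLK lay nearest to this median (0.081) and CD79B (0.414) and BTK (1.30) farthest. All of these comparisons share the control samples.

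The change from control was compared between doses, as HD minus LD, on the days with enough animals. On Days 3 to 40 (12 animals of each dose) no member was called by edgeR, where 0% of all genes were called on Days 3 to 30 and 0.0291% on Day 40. The 63 differences lay between -0.68 and 0.54, and 1 of them had an unadjusted p under 0.05, that of MS4A1 on Day 40 (-0.68 ± 0.22, adjusted p = 0.13). Their standard errors were between 0.10 and 0.39, so that these values do not show that the doses acted alike.

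On Day 60, 6 of the 9 genes were lower in HD than in LD animals relative to control, where 12.6% of all genes were called lower and 23.1% either way. MS4A1 ranged from 79.3 to 326 CPM in the 12 LD samples with a median of 226.6, and from 25.2 to 304.7 in the 12 HD samples with a median of 133.4. It was below the animal's own control in 4 of 12 LD animals and in 8 of 9 HD animals with a control, at a median of 116.1% and 25.6% of control, and the difference was -1.82 ± 0.39 (adjusted p = 0.0013). CD72 was 38.9 CPM in the LD median (11.8 to 106.1) and 18.6 in the HD median (7.08 to 142), below control in 3 of 12 and 7 of 9 animals, with a difference of -1.46 ± 0.35 (adjusted p = 0.003). The ranges of CPM of the doses overlapped for each gene, and the HD samples spread more widely.

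BLNK had a median of 24.8 CPM in LD (12.2 to 32.5) and 15.8 in HD samples (6.63 to 46.05), with a difference of -0.98 ± 0.24 (adjusted p = 0.0033). CD22 (-1.15 ± 0.39, adjusted p = 0.03), CD79A (-0.94 ± 0.33, adjusted p = 0.036) and CR2 (-0.88 ± 0.34, adjusted p = 0.049) were called as well. BLK (-0.80 ± 0.32, adjusted p = 0.064), CD79B (-0.90 ± 0.42, adjusted p = 0.11) and BTK (-0.10 ± 0.14, adjusted p = 0.61) were not. With TMM scaling CD79A (adjusted p = 0.053) and CR2 (adjusted p = 0.071) were no longer called.

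Library series was not balanced between the doses on this day. The 12 LD samples were 4 of series B and 8 of series C, and all LD controls were of series A. All 12 HD samples were of series C, and so were 4 HD controls, but not all of these animals had a Day 60 sample. Of the 21 animals in the Day 60 test, 2 shared a series with their control, and these were HD animals. With Day 30 in place of the control and series C alone (8 LD and 12 HD animals), edgeR called 0 of the 13751 genes (2144 at an unadjusted p under 0.05), and the 8 members other than BTK had differences between -1.29 and -0.48 with adjusted p between 0.26 and 0.46. Control medians were also higher in the HD animals, as for CD79A (433 against 272 CPM) and MS4A1 (318 against 176). On Day 60, 8 of 12 other B cell genes were lower in HD animals, 2 of 8 T cell genes were lower, 2 of 7 NK cell genes and 1 of 8 erythroid genes were lower, 6 of 7 neutrophil, 4 of 7 monocyte and 6 of 10 glucocorticoid-induced genes were higher, and the summed neutrophil level was 2448 to 17780 CPM (median 6351) in HD and 594.5 to 5295 (1876) in LD samples. The part of these in the dose difference was not tested. From Day 90 on 3 HD animals or fewer had a control, and the doses were not compared.

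**Figure D4:**
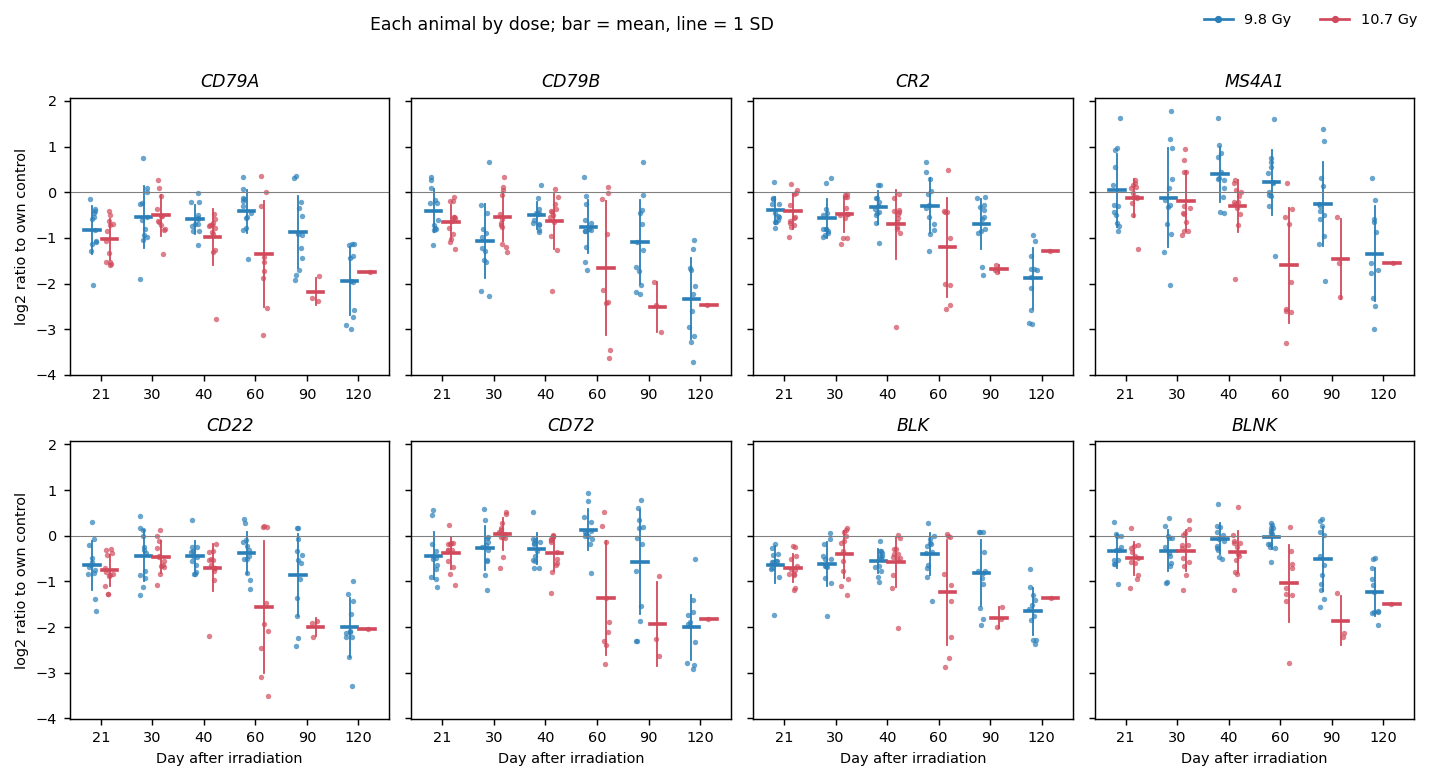
Log2 ratio of CPM plus 0.1 to the animal's own control for 8 of the 9 genes on Days 21 to 120, each point an animal, LD in blue and HD in red, with a bar at the mean and a line of 1 SD. On Day 60 the lowest HD points are between -3.62 and -2.56 in the 8 panels and the lowest LD points between -1.70 and -0.57, and HD animals with a control number 3 on Day 90 and 1 on Day 120.

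The change from control was compared between the sexes on the same 8 days (12 females and 12 males with a control up to Day 40), and no member was called on any day (0.0291% of all genes on Day 30, 0% on the other days). The female minus male differences were between -0.26 and 0.77, and 3 of 72 had an unadjusted p under 0.05, all on Day 30. The largest was that of CD79B on Day 30 (0.77 ± 0.24, unadjusted p = 0.0035, adjusted p = 0.11), and DESeq2 called 1 member on that day. On Day 30, 4 of 24 animals shared a series with their control, and the part of the series in this difference was not tested. BTK on Day 30 had the lowest difference (-0.26 ± 0.11, adjusted p = 0.22).

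The 8 draws on unscheduled days (Day 71 to Day 172, 4 of each dose) were not part of the tests. In the 7 with a control of the same animal, the 8 members other than BTK were below control in all 7, and BTK in 2 of 7. Against the animal's previous scheduled draw, MS4A1 was lower in 7 of 8, CD22 and CD72 in 6, CD79A, CD79B and BLNK in 5, and BLK, CR2 and BTK in 4. MS4A1 stood at 14.9 to 100.2 CPM with a median of 34.8. In HD animal B2004 MS4A1 went from 188 CPM at control to 32.01 on Day 60 and 23.1 on Day 71, and in LD animal B1001 from 435.5 to 54.5 on Day 120 and 37.8 on Day 127. LD animal B1504 had a CD79A level of 124.1 CPM at control, 38.3 on Day 90 and 72.3 on Day 102, the last above its previous draw. CD79B was lowest in the draw of Day 127, at 13.8 CPM, after 65.01 on Day 120 and 269 at control in the same animal.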

How the data were processed

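Whole blood RNA of 28 animals was sequenced after removal of ribosomal RNA with a stranded total RNA kit. Per the labels and the submitters' processing notes, the authors trimmed reads with cutadapt 2.10, aligned them with STAR 2.7.6a to Mmul_10 with RefSeq annotation and counted them per gene with Subread 2.0.1. The deposited table of raw counts (21070 genes) was the source of all main values. A second deposited table holds log2 values normalized by the authors and was used only as an alternative with limma. Whether counting used strand is not given in the sources used here.

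The filter asked for 3 counts or more in 80% of samples or more, which 13751 genes passed. Counts were scaled by upper quartile factors and fitted with edgeR 4.0.16 (quasi-likelihood test, R 4.3.3) with the animal as a block, since the labels give the animal of each sample, and p-values were adjusted by Benjamini-Hochberg over all genes tested. Each day was compared with the same animals' controls, days with each other, and the change from control between doses and sexes. Samples of the same animal are repeated draws, and animals are the replicates. Levels are CPM with the same factors, and ratios for plots used 0.1 CPM as a pseudocount. For values relative to B cell genes, library sizes were set by 12 other B cell genes. Fits were tested on simulated data. The most alike genes were those with the smallest mean absolute difference from the members' median fold change over the 15 scheduled days, outside all lists, and pathway and marker genes were named as the 4 or 2 with the lowest or highest called fold changes on Days 9 and 120, with symbols that start with LOC left out of the B cell list and the alike genes. Some genes that this rule names, and a promoter sequence, are not reported here. The members and lists were chosen with earlier results of these data known.

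Alternatives were TMM scaling, DESeq2 1.42.0, no filter and a filter of 10 counts, limma 3.58.1 on the log2 values, no block, library series as a term or held fixed, and leaving out animals. Totals of 2840219 to 23638161 counts per sample set the precision, and the members' counts in single samples ranged down to 0. Promoter windows and positions came from the Mmul_10 genome and its RefSeq annotation.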

Additional observations from a re-analysis of the deposited data

Results flagged for a closer look

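Within each dose and day of 4 to 10 samples, 54 groups of member levels were checked for a sample far from the rest, and chance alone would mark about 1 in 20. The LD sample of animal B1502 on Day 150 had 1.61 CPM of CD79B (next lowest 10.7) and 0 CPM of BLK (next lowest 3.74), and its library had the lowest total of all. The same animal had 2.61 CPM of BLK on Day 210, where the next lowest sample had 17 CPM. LD animal B1004 on Day 180 had 51.4 CPM of BTK (next lowest 64.7) and 3.34 CPM of BLNK (next lowest 6.42). LD animal B1503 on Day 240 had 13.0 CPM of CD79A (next lowest 55.7) and 4.32 CPM of CD22 (next lowest 12.2), and its MS4A1 was 25.4 CPM on the same day (next lowest 58.9).

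The change from control differed between doses on Day 60, as HD minus LD, for MS4A1 (-1.82), CD72 (-1.46), CD22 (-1.15), BLNK (-0.98), CD79A (-0.94) and CR2 (-0.88) by edgeR's interaction test. Where the LD animals had a mean log2 ratio to control of 0.22 for MS4A1 and 0.13 for CD72, the HD animals had -1.60 and -1.36, with SDs of 0.72 and 0.45 against 1.26 and 1.24.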

How the results depend on the processing

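Of 277 recomputed counts of called members, 256 stayed within 1.5 times the reported count. Shares of all genes called in these settings are mostly not reported here. The recomputed counts alone therefore do not show what is particular to the members. On Day 30 the single call was lost with library series as a term (0), and on Day 60 the count was 2 with series and 1 without the replicate block. On Day 270 the count was 8 with series, 8 with DESeq2 and 0 to 8 when 1 animal was left out (8 without animal B1003). Relative to other B cell genes, the fit with series gave 1 at Day 6, 0 at Day 30, 0 at Day 40, 0 at Day 60 and 6 at Day 270, summed counts gave 0 on Day 40 and 5 on Day 270, and Day 120 against Day 90 in one series gave 1 (BTK, higher). For the step from Day 40 to Day 60 the count was 0 without the replicate block and 0 in one series, from Day 60 to Day 90 it was 4 with DESeq2, and from Day 9 to Day 40 it was 2 without the block and 7 in one series. DESeq2 gave 1 for sex on Day 30, and the dose difference on Day 60 gave 0 with Day 30 as reference in series C. The replicate block, the animal, changed no other count by more than 1.5 times.

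Single values changed sign near 0. In one series these were BTK on Day 21 (0.016), CD79B (0.0088), MS4A1 (0.32) and CD72 (0.31) on Day 30, CD79B relative to other B cell genes on Day 30 (0.032) and MS4A1 on Day 40 (-0.25). With series as a term these were CD72 on Day 30 (0.010), MS4A1 on Day 40 (-0.23) and BTK on Day 270 (0.034), the last also with TMM (0.072), DESeq2 (0.11), no filter (0.077) and limma (0.011). The causes were not tested.

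Scaling moved all genes: on Day 120 the median of all genes was -0.15 with upper quartile scaling and -0.01 with DESeq2, and called genes were 2630 lower and 1749 higher against 1903 lower and 2377 higher, while 8 members were lower in both. Chosen after seeing the data were Day 30 as reference for the dose difference, the series alternatives for values relative to other B cell genes, and the runs without the LD Day 150 and HD Day 40 samples that stood apart. From Day 180 on 6 animals were left, 1 of them HD, and from Day 120 no animal shared a series with its control, which limits these days.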
